A study of Mus musculus with 7 samples.

Results

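The arms of miR-221 and miR-222 were followed across 7 small RNA libraries of mouse testis. All mature miRNAs whose name begins with miR-221- or miR-222- were taken, which gave 3 of the 331 listed miRNAs, namely mmu-miR-222-3p, mmu-miR-221-3p and mmu-miR-221-5p (the mouse prefix is left out from here on, except beside the levels). Every library was of the outbred mouse strain CD1, and each condition was covered by 1 library. T6 and T10 were testes of 6.5 and 10.5 days post-partum (dpp) mice before culture, and TAD was adult testis of 2 months without culture. T6-12K and T6-12A were 6.5 dpp testes cultured for 12 days with KSR, a serum replacement, or with AlbuMAX I, a lipid-rich bovine serum albumin, and T10-12K and T10-12A were the same for 10.5 dpp testes. The explants, freed of the tunica albuginea, were kept at 34 °C with 5% CO2 at the surface of the medium. An explant was an entire testis at 6.5 dpp but only part of a testis at 10.5 dpp. The culture medium held penicillin and streptomycin, and no mutant allele is given for any group. The sample labels round the starting ages to 6 and 10 days.

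miRNAs are cut from a hairpin precursor, whose 5′ and 3′ arms can each give a mature strand, and a mature strand finds its target mRNAs mainly through its seed, bases 2 to 8. miR-221 and miR-222 are made from neighbouring X-linked hairpins. In the testis they are known from undifferentiated spermatogonia, where they repress Kit, the receptor tyrosine kinase whose appearance marks differentiating spermatogonia. They are also known from endothelial, fibroblast and proliferating cells, so a whole testis can hold several sources. Kit mRNA was not analysed here.

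The hairpins are shown first because the 3 measured strands come from them. In GRCm38 Mir222 is annotated at chrX:19146893-19146971 and Mir221 at chrX:19146294-19146388, both on the minus strand and with 504 bases between them. Overlap with other genes is not reported here. Sequences are those of RefSeq (GRCm38.p6), which held all 3 strands, and the capitals mark the listed mature strands within each hairpin.
Mir222: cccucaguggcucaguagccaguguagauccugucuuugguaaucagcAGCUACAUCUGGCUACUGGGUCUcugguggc
Mir221: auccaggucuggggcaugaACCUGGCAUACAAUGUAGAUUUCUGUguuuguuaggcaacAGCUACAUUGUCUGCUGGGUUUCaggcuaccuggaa

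The mature strands are shown with the seed in capitals, to compare what each could pair with.
miR-222-3p: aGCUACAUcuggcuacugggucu
miR-221-3p: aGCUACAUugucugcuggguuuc
miR-221-5p: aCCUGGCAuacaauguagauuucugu

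miR-222-3p and miR-221-3p shared their seed and the first 8 bases, but only 11 of 23 positions in all when aligned without gaps. A full-length read therefore belongs to a single one of them. miR-221-5p carries another seed, which no other mature mouse miRNA of the RefSeq table shared. The seed of the 3p strands was shared by miR-1928, which is not among the listed miRNAs.

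A match to the 3p seed is the motif ATGTAGC on the mRNA strand. The 3′ UTR of Kit, 2177 bases long in transcript Kit-204, held 2 such matches, and the windows around them are shown because Kit is the known target in spermatogonia. The first lies at chr5:75654981-75655009 and the second at chr5:75656512-75656540, both on the plus strand of GRCm38, and capitals mark the match.
Kit first match: atgggagatatATGTAGCaagactagaaa
Kit second match: taaatattgaaATGTAGCaataatgtctt
Of 4758 genes with a 3′ UTR at least this long, 15.9% held the motif at least once within the same number of bases, so a single match is frequent. The share with 2 or more matches, as in Kit, was not counted. The match of the miR-221-5p seed, TGCCAGG, was absent from the Kit 3′ UTR and present in 20.8% of those windows.

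Reads on the 331 listed miRNAs numbered between 7075528 and 13397407 in 6 libraries and 1628770 in TAD. Levels are given as CPM, the reads of a miRNA per 1000000 miRNA reads of its library, with exact 95% Poisson intervals that cover counting error only. With 1 library per condition there was no replicate error, no test between conditions was made, and no p-value is given. As a check of the tissue, the 6 listed miRNAs of meiotic and later germ cells (miR-34b, miR-34c and miR-449 strands) summed to 74.0 CPM in T6 and 25799 CPM in TAD. In whole tissue, fewer cells of a type and less RNA per cell cannot be told apart.

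All 3 strands stood higher in each of the 4 cultured libraries than in each of the 3 uncultured libraries. mmu-miR-222-3p was the most abundant strand. T6 had 50.4 CPM, T10 46.4 and TAD 66.3, while T6-12K had 168, T6-12A 119, T10-12K 226 and T10-12A 180.2. These values rest on 673, 621, 108, 1671, 1281, 1602 and 1523 reads in the same order. The groups did not overlap, and T6-12A, the lowest of the cultures, stood 1.79-fold above TAD, the highest of the rest. In the order of levels, T10 and T6 lay within counting error of each other, as did T6-12K and T10-12A, and the other neighbours differed beyond it.

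mmu-miR-221-3p is the other strand with this seed. T6 had 11.1 CPM, T10 17.5 and TAD 41.1, while T6-12K had 71.1, T6-12A 41.7, T10-12K 112 and T10-12A 96.9. These came from 148, 235, 67, 706, 450, 792 and 819 reads. The cultured libraries stood above T6 and T10 without overlap. TAD and T6-12A, its neighbours in the order, differed only 1.01-fold, well within counting error (95% interval of the log2 ratio from -0.35 to 0.39), while the other neighbours differed beyond it.

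mmu-miR-221-5p, the opposite strand of the miR-221 hairpin, was the least abundant. T6 had 2.10 CPM, T10 1.94 and TAD 3.07, while T6-12K had 16.2, T6-12A 8.62, T10-12K 20.6 and T10-12A 18.3. It had 28, 26 and 5 reads in T6, T10 and TAD, so its uncultured levels were measured least precisely, and 161, 93, 146 and 155 reads in the cultures. The 3 uncultured libraries lay within counting error of their neighbours in the order, as did T6-12K, T10-12A and T10-12K. T6-12A, again the lowest of the cultures, stood 2.81-fold above TAD (log2 ratio 1.49, 95% interval of counting error from 0.19 to 2.79).

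**Figure D1:**
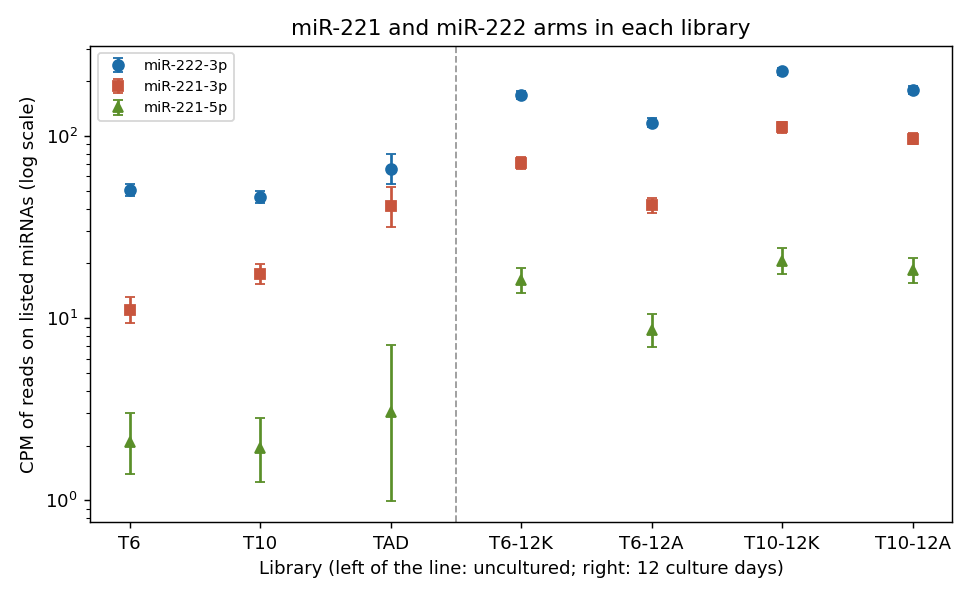
CPM of miR-222-3p (circles), miR-221-3p (squares) and miR-221-5p (triangles) in each of the 7 libraries, on a log scale; bars are exact 95% Poisson intervals for counting error. Points right of the dashed line, the cultured libraries, lie above those of the same strand on the left, except that miR-221-3p in TAD (41.1 CPM) and in T6-12A (41.7 CPM) lie at about the same height.

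Such a separation was uncommon in the table. Of the 331 miRNAs, 16 (4.83%) had all 4 cultures above all 3 uncultured libraries in CPM, and 69 (20.8%) had them all below. The 3 strands were among these 16, at rank 1 (miR-221-5p), rank 4 (miR-222-3p) and rank 16 (miR-221-3p) by the gap between the groups. With miR-210-3p, miR-221-5p was 1 of only 2 miRNAs whose gap exceeded 2-fold (0.604% of the table). The paper discarded miRNAs with fewer than 50 reads, and miR-221-5p reached 50 reads only in the 4 cultured libraries. Its place among the listed miRNAs may therefore depend on the cultures, so its rank and this share are only a description. Under median-of-ratios size factors 37 miRNAs were separated upward and 33 downward. The 3 strands were separated under all 5 other scalings as well. TAD was the uncultured library with the highest level of each strand, and without it the log2 gap between both groups was 1.25 for miR-221-3p (0.02 with it), 1.24 for miR-222-3p (0.84 with it) and 2.04 for miR-221-5p (1.49 with it).

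Against the testes from which the cultures were started, the excess of miR-222-3p in culture was smaller than that of either miR-221 strand at both ages. At 6.5 dpp, the geometric mean of both media, used for every pair of libraries, stood above T6 by a log2 ratio of 1.49 for miR-222-3p (95% interval of counting error from 1.37 to 1.61), 2.30 for miR-221-3p (2.05 to 2.54) and 2.50 for miR-221-5p (1.93 to 3.06). At 10.5 dpp, the ratio to T10 was 2.12 for miR-222-3p (2.00 to 2.25), 2.57 for miR-221-3p (2.37 to 2.77) and 3.33 for miR-221-5p (2.75 to 3.90). In folds these are 2.81, 4.91 and 5.64 at 6.5 dpp, and 4.36, 5.94 and 10.0 at 10.5 dpp.

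The table as a whole moved the other way. In CPM, 11.8% of the miRNAs were over 2-fold higher in the 6.5 dpp cultures than in T6 and 50.6% over 2-fold lower, and at 10.5 dpp the shares were 9.37% and 42.6%. This balance depended on the scaling, since with median-of-ratios factors 55 miRNAs were higher and 70 lower at 6.5 dpp, against 39 and 167 in CPM, and 48 were higher and 85 lower at 10.5 dpp, against 31 and 141. The median log2 ratio of the miRNAs with reads in the libraries compared was -1.0015 at 6.5 dpp and -0.74 at 10.5 dpp. Relative to that median, a difference that no scaling of whole libraries alters, miR-222-3p stood 2.49 higher at 6.5 dpp and 2.86 at 10.5 dpp, miR-221-3p 3.30 and 3.31, and miR-221-5p 3.50 and 4.06. By this ratio the 3 strands ranked 22, 12 and 11 of 306 miRNAs at 6.5 dpp, and 16, 14 and 6 of 302 at 10.5 dpp. The place of miR-221-5p in the table may depend on the cultures, so its ratios and ranks, here and for each medium, are only a description.

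Each medium on its own gave the same order of the strands. T6-12K stood above T6 by 1.74 for miR-222-3p (95% interval of counting error from 1.61 to 1.87), 2.68 for miR-221-3p (2.43 to 2.94) and 2.95 for miR-221-5p (2.37 to 3.53) on the log2 scale, where 10.9% of the miRNAs were over 2-fold higher and 57.1% over 2-fold lower. T6-12A stood above T6 by 1.24 (1.10 to 1.37), 1.91 (1.64 to 2.18) and 2.04 (1.43 to 2.65) in the same order, with 12.4% higher and 37.9% lower. For T10-12K over T10 the ratios were 2.29 (2.15 to 2.42), 2.67 (2.46 to 2.88) and 3.41 (2.81 to 4.01), with 8.21% higher and 40.1% lower. For T10-12A over T10 they were 1.96 (1.82 to 2.09), 2.47 (2.26 to 2.67) and 3.24 (2.64 to 3.84), with 10.6% higher and 41.4% lower. All of these ratios thus passed 2-fold upward, at ranks between 7 and 35 from the highest.

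**Figure D2:**
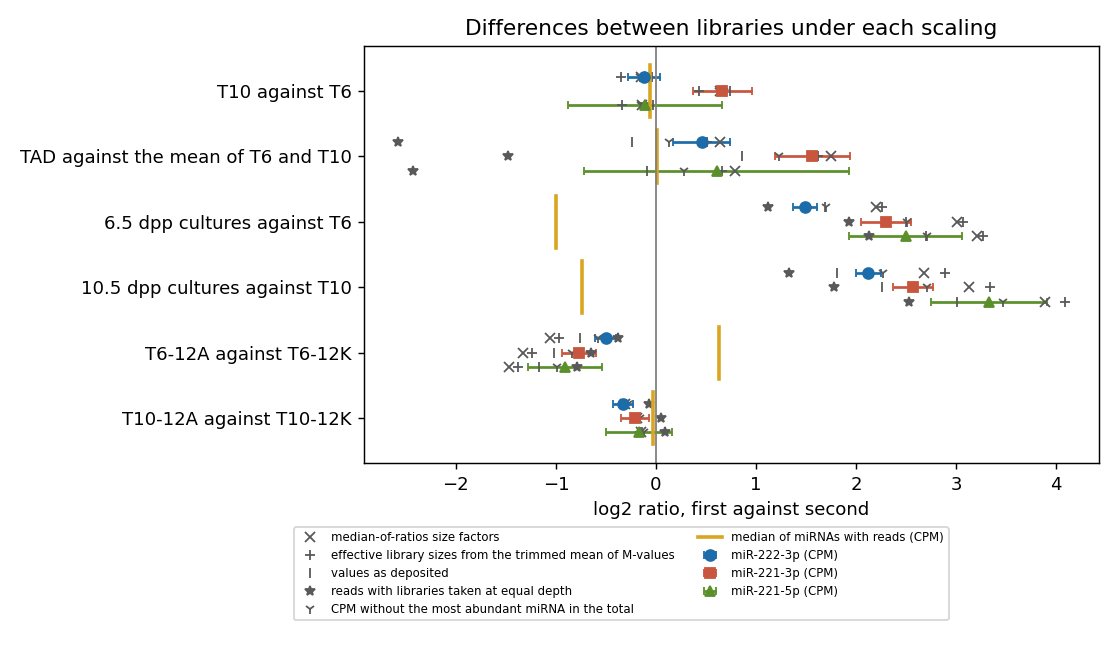
Log2 ratio of each strand in 6 comparisons: coloured symbols are CPM with 95% intervals for counting error, grey marks the other scalings, and the gold line the median of all miRNAs with reads in CPM. In both culture comparisons every mark lies above 1, while in the adult comparison the marks for equal depth fall to between -2.58 and -1.48.

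The levels of other cell types were summed over marker miRNAs, and their part in these results was not tested. The endothelial pair, miR-126a-5p and miR-126a-3p, summed to between 124 and 249 CPM in culture against 190 in T6, 181 in T10 and 405 in TAD, and neither strand passed 2-fold in either culture comparison. Of 5 leukocyte markers 2 were listed, summing to at most 10.2 CPM in culture and at least 10.8 without. This gap rests on miR-150-5p, listed at 0 in 3 cultures, where a 0 may hide a few reads. miR-142a-5p alone overlapped, with 5.54 to 10.2 CPM in culture against 8.53 in T6, 8.81 in T10 and 28.2 in TAD. The 4 erythroid markers ranged in sum from 445 to 2554 CPM in culture and from 1114 to 1694 without, nearly all of it miR-486a-5p, and the defining miR-451a was listed at 0 in all 4 cultures. The 7 mesenchymal markers, led by miR-143-3p, summed to between 158594 and 214118 CPM in culture, against 106441 in T6, 148352 in T10 and 259249 in TAD. That sum was almost all miR-143-3p, whose own log2 ratios were 0.82 (6.5 dpp) and 0.36 (10.5 dpp). The list's median was -0.71 and -0.74, none of the 7 was over 2-fold higher, and 3 were over 2-fold lower at 6.5 dpp and 2 at 10.5 dpp. The 6 germ cell markers summed to 74.0 CPM in T6 and 164 in T10, and to between 614 and 1972 in culture.

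In the adult testis the comparison with T6 and T10 depended on the strand and on the scaling. In CPM, miR-221-3p in TAD stood 2.95-fold above the geometric mean of T6 and T10 (log2 ratio 1.56, 95% interval of counting error from 1.19 to 1.94). miR-222-3p stood 1.37-fold above it (0.46, from 0.17 to 0.74). miR-221-5p, with 5 reads, gave 0.61 with an interval from -0.72 to 1.93, so a difference was not detectable at this depth. Of the 331 miRNAs, 22.1% were over 2-fold higher and 35.3% over 2-fold lower in TAD. Among the 261 miRNAs with reads in all 3 libraries, which leaves out those listed at 0 in TAD, the median was 0.01, and relative to it the strands stood 1.55, 0.45 and 0.60 higher in the order just given. Against T6 alone, where 25.8% of the miRNAs were over 2-fold higher and 37.9% lower, miR-221-3p gave 1.89 (1.48 to 2.31) and miR-222-3p 0.40 (0.10 to 0.69). Against T10 alone, with 17.3% higher and 34.5% lower, they gave 1.23 (0.84 to 1.62) and 0.52 (0.22 to 0.81). With libraries taken at equal depth the 3 ratios were -1.48, -2.58 and -2.43, where the fewer reads of the adult library count as lower levels, and in the values as deposited miR-222-3p gave -0.24 and miR-221-3p 0.86.

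Between T6 and T10, miR-221-3p was 1.58-fold higher in T10 (log2 ratio 0.66, 95% interval of counting error from 0.37 to 0.96). miR-222-3p gave -0.12 (-0.28 to 0.04) and miR-221-5p -0.11 (-0.88 to 0.66), both within counting error. None of the 3 strands reached the 2-fold limit that 11% of the miRNAs passed upward and 4.29% downward.

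Between the media, all 3 strands stood lower with AlbuMAX I at both ages in CPM, with 1 library per medium and age. The paper reports smaller explants and frequent aberrant nuclei with AlbuMAX I, and used only KSR cultures for its cytology. The part of this in the ratios was not tested. At 6.5 dpp, the log2 ratio of T6-12A to T6-12K was -0.50 for miR-222-3p (95% interval of counting error from -0.61 to -0.40), -0.77 for miR-221-3p (-0.94 to -0.60) and -0.91 for miR-221-5p (-1.28 to -0.54). The other miRNAs mostly went the other way, with a median of 0.63, and 27.4% of them were over 2-fold higher and 5.92% over 2-fold lower with AlbuMAX I. With median-of-ratios factors this balance was gone, with 36 higher and 44 lower against 88 and 19 in CPM. Relative to the median the strands stood at -1.13, -1.40 and -1.54, at ranks 272, 286 and 291 of 311 from the highest. T6-12K also held fewer reads of germ cell markers than T6-12A, 614 against 1499 CPM, and more of miR-486a-5p, 2554 against 445 CPM, while the other 3 erythroid markers were listed at 0 in both. The part of these in the ratio was not tested. At 10.5 dpp the ratio of T10-12A to T10-12K was nearer 0, with -0.33 for miR-222-3p (-0.43 to -0.23), -0.21 for miR-221-3p (-0.35 to -0.07) and -0.17 for miR-221-5p (-0.50 to 0.16). With libraries at equal depth it was -0.07, 0.05 and 0.09, and no strand reached 2-fold, a limit passed by 5.64% of the miRNAs in each direction.

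Ratios between strands of the same library do not depend on any scaling, and they were not constant. Among the reads of both 3p strands, miR-221-3p made up 18.0% in T6 (exact Clopper-Pearson 95% interval from 15.5% to 20.8%), 27.5% in T10 (24.5% to 30.6%) and 38.3% in TAD (31.1% to 45.9%). In culture T6-12K had 29.7%, T6-12A 26.0%, T10-12K 33.1% and T10-12A 35.0%. All libraries lay above T6, whose interval touched none of the others. Both 10.5 dpp cultures lay above both 6.5 dpp cultures, although the intervals of T10-12K (31.2% to 35.0%) and T6-12K (27.9% to 31.6%) overlapped. miR-222-3p thus remained the larger strand everywhere, by 4.55-fold in T6 and 1.61-fold in TAD.

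Within the miR-221 hairpin, miR-221-5p made up 15.9% of the reads of both arms in T6 (10.8% to 22.2%), 9.96% in T10 and 6.94% in TAD (2.29% to 15.5%, from 5 of 72 reads). In culture T6-12K had 18.6%, T6-12A 17.1%, T10-12K 15.6% and T10-12A 15.9%. The 4 cultures lay close together, with overlapping intervals. T10 had an interval from 6.61% to 14.3%, which overlapped those of T6, T6-12A, T10-12K and T10-12A but not that of T6-12K (16.0% to 21.3%). The interval of TAD likewise overlapped all others except that of T6-12K. Set against miR-222-3p, miR-221-5p made up 3.99% of the reads of this pair in T6, 4.02% in T10 and 4.42% in TAD, and between 6.77% and 9.24% in culture. In T6 (2.67% to 5.72%) and T10 (2.64% to 5.83%) the intervals overlapped that of T6-12A (5.50% to 8.23%) and none of the other 3 cultures, whereas the interval of TAD (1.45% to 10.0%, from 5 of 113 reads) overlapped those of all 4 cultures.

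**Figure D3:**
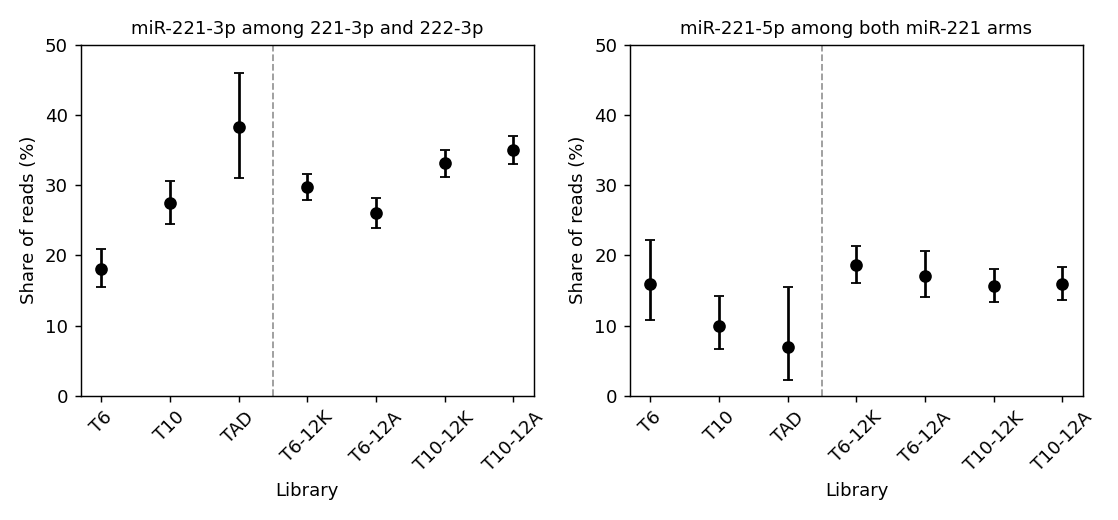
Share of miR-221-3p among the reads of miR-221-3p and miR-222-3p (left) and of miR-221-5p among the reads of both miR-221 arms (right), per library and in percent, with exact 95% binomial intervals. On the left T6 is lowest at 18.0% and TAD highest at 38.3%, and on the right the 4 cultured libraries lie between 15.6% and 18.6%.

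The miRNAs whose pattern was most like that of the strands were sought by the standard deviation (SD), over the 7 libraries, of the log2 ratio to the strand, among miRNAs with reads in every library and a mean of at least 100 CPM. For miR-222-3p the most alike was miR-21a-5p, a miRNA abundant in many proliferating and stressed tissues, with an SD of 0.26, against a median of 1.38 over 119 miRNAs. For miR-21a-5p T6 had 2018 CPM, T10 2359 and TAD 3042, while T6-12K had 5522, T6-12A 5445, T10-12K 7751 and T10-12A 9291. It was followed by miR-146b-5p (SD 0.48), known from inflammatory responses, and by the X-linked miR-501-3p (0.64). For miR-221-3p the order was miR-222-3p (0.49), miR-146b-5p (0.52) and miR-21a-5p (0.53), and for miR-221-5p it was miR-222-3p (0.59), miR-21a-5p (0.72) and miR-146b-5p (0.89). Without the minimum of 100 CPM, the closest of 251 miRNAs to miR-221-5p was miR-221-3p, the other arm of its hairpin, with an SD of 0.58. Without TAD, miR-210-3p came first for miR-222-3p, ahead of miR-21a-5p, and second for miR-221-5p. All these values share the same 7 libraries and are a description.

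**Figure D4:**
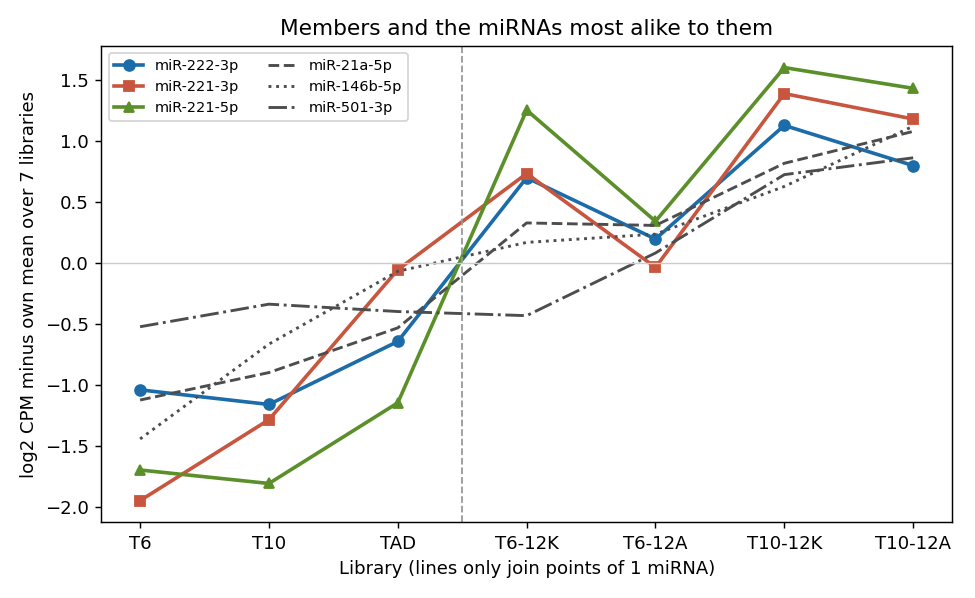
Log2 CPM of each strand and of the 3 miRNAs most alike to miR-222-3p, each minus its own mean over the 7 libraries; lines only join the points of a miRNA. miR-21a-5p (dashed) runs nearest to miR-222-3p (SD of the log2 ratio 0.26), and miR-501-3p (dash-dotted) has no raised level in T6-12K.

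The X chromosome is silenced during male meiosis, although several X-linked testis miRNAs are known to be expressed there, so the strands were set beside the other X-linked miRNAs. Of 331 listed miRNAs 288 were found in the RefSeq table, 46 of them on chromosome X alone besides the 3 strands and 236 on autosomes. In the 6.5 dpp cultures 1 of the 46 was over 2-fold higher and 26 were over 2-fold lower than in T6, and in the 10.5 dpp cultures 1 was higher and 22 lower than in T10. At 6.5 dpp the media differed. In T6-12K 35 (76.1%) were over 2-fold lower than in T6, and in T6-12A 11 (23.9%), against 57.1% and 37.9% of all miRNAs. At 10.5 dpp the shares lower than in T10 were 44.4% in T10-12K and 54.3% in T10-12A. For the mean of both media, the median log2 ratio of the 46 was -1.09 at 6.5 dpp and -0.96 at 10.5 dpp, against -1.01 and -0.66 for autosomal miRNAs. None of the 46 was separated upward in all cultures and 13 (28.3%) were separated downward, against 13 (5.51%) and 45 (19.1%) of 236 autosomal miRNAs, a difference that was not tested. Many of the 46 are arms or paralogs of the same families, such as miR-465, miR-743 and miR-883, and miR-465b-3p and miR-465c-3p have equal values in every library. They are not independent, so these shares count some families many times. The 4 most abundant of the 46, miR-470-5p, miR-871-3p, miR-741-3p and miR-881-3p, gave log2 ratios of -0.61, -0.85, -0.81 and -0.52 at 6.5 dpp, and -0.36, -0.74, -0.74 and -0.51 at 10.5 dpp. miR-501-3p, which was among the miRNAs most alike to miR-222-3p, gave 0.35 and 1.13. In TAD, 13 of the 46 (28.3%) were over 2-fold higher and 13 over 2-fold lower than the mean of T6 and T10, against 22.1% and 35.3% of all miRNAs.

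**Figure D5:**
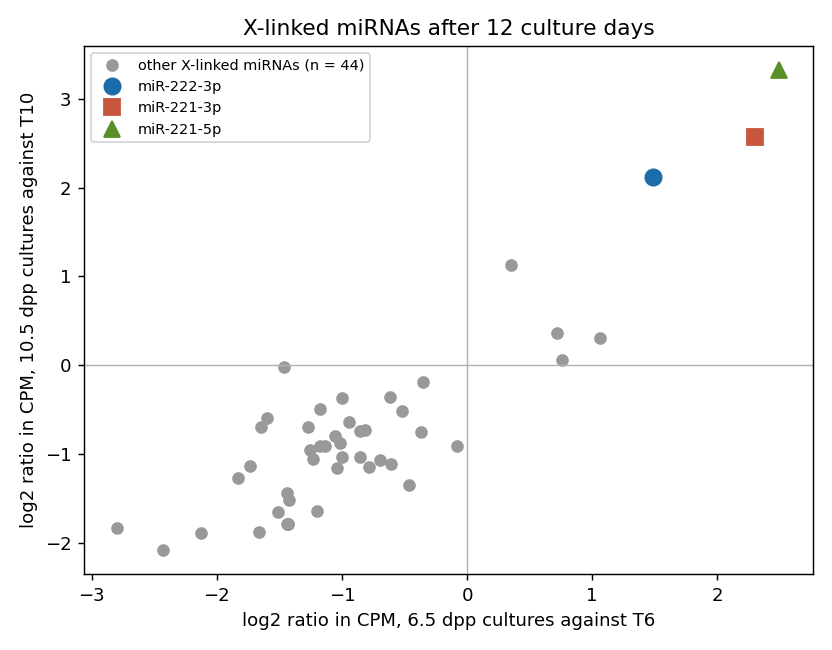
Log2 ratio in CPM of the 6.5 dpp cultures to T6 (horizontal) and of the 10.5 dpp cultures to T10 (vertical) for the 3 strands and for the 44 other X-linked miRNAs with reads in these 6 libraries. Of the 44, 40 lie below 0 on both axes and 4 above 0 on both, none beyond 1.06 on the horizontal or 1.13 on the vertical axis, whereas the strands lie at 1.49 or more and 2.12 or more.

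Other miRNAs known from undifferentiated spermatogonia, or from their response to retinoic acid, were counted as a list. The list mixes both kinds, so a common direction could not be looked for. Its counts and medians are a description and do not speak for undifferentiated spermatogonia. Of 20 on the list 18 were measured. At 6.5 dpp 2 (11.1%) were over 2-fold higher in culture and 10 (55.6%) over 2-fold lower, against 11.8% and 50.6% of all miRNAs. Their median log2 ratio was -1.02, close to the limit of -1, so this count depends on the limit and the scaling. It also differed by medium, with 9 (50%) lower in T6-12K and 3 (16.7%) in T6-12A, against 57.1% and 37.9% of all miRNAs. At 10.5 dpp 2 (11.1%) were higher and 1 (5.56%) lower, against 9.37% and 42.6% of all, and the median was -0.36. The medians of all miRNAs were -1.0015 and -0.74. The 2 higher ones were the same at both ages, miR-146a-5p with 2.69 and 2.68, and miR-21a-5p with 1.44 and 1.85, and are named after their values were seen. For miR-146a-5p T6 had 24.8 CPM, T10 47.9 and TAD 140.0, while T6-12K had 120.4, T6-12A 211, T10-12K 197 and T10-12A 478, so its lowest culture lay below TAD. The 4 most abundant members of the list belong to the let-7 family, which retinoic acid is known to raise in spermatogonia. Their ratios at 6.5 and 10.5 dpp were -1.03 and -0.11 for let-7f-5p, -1.05 and -0.53 for let-7a-5p, -0.41 and 0.0041 for let-7i-5p, and -1.08 and -0.70 for let-7c-5p.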

How the data were processed

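Small RNA of 7 mouse testis samples was sequenced by the authors on an Illumina HiSeq instrument, aligned with Bowtie to mm10 and assigned to mature miRNAs of miRBase. The submitters' processing notes name FastQC, HTSeq, DESeq and mm10. The deposited table is a normalized signal, in which the reads of each library were divided by 1 factor, so that values are whole multiples of what 1 read is worth. That worth was read from the low values of each library, and with it 100% of values under 10000 reads were whole numbers within 0.05 read. The lowest value above 0 was 5 reads, so a value of 0 may hide up to 4 reads, and folds against 0 used a floor of 5 reads. The 7 files per library hold the same values as the joint table.

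Reads were scaled to CPM on the listed miRNAs. A log2 ratio compares libraries or the geometric mean CPM of a pair of libraries. Its interval covers counting error only, as do the exact Poisson and Clopper-Pearson intervals, and PCR reads without molecular identifiers are not independent molecules. With 1 library per condition no test between conditions was made, and a fold of 2 was the limit for counts. Alternatives were median-of-ratios factors, trimmed means of M-values (trims of 30% and 5%), the deposited values, equal depth, CPM without miR-10b-5p (31.2% to 54.4% of reads), a pseudocount of 1 CPM, a mean of at least 100 CPM, and leaving out a library. Named miRNAs were the strands of miR-221 and miR-222, the 3 most alike to each, those sharing a seed, and at most 4 of each list by mean CPM. The members and lists were chosen with earlier results of these data known. Scripts were tested on simulated data and run with matplotlib 3.10.9, scipy 1.17.1, pandas 2.3.3 and numpy 2.4.6 under Python 3.11.15.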

Additional observations from a re-analysis of the deposited data

How the results depend on the processing

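No paired analysis was possible because each condition had 1 library and no result comes from a test. Ratios within each starting age stand in the report. Of 126 recalculated log2 ratios of the 3 strands, 7 had the opposite sign, 2 of them for miR-221-3p, 2 for miR-222-3p and 3 for miR-221-5p, whose CPM ratio did not exceed counting error there. The excess over the starting testis stayed above 1 in 42 of 42, and the lowest cultured over the highest uncultured library stayed above 0 in 18 of 18. Where a value moved, scaling or the libraries left in the mean were what differed by construction.

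With trimmed means of M-values, miR-221-3p, miR-221-5p and miR-222-3p gave 3.07, 3.27 and 2.26 in the 6.5 dpp cultures, 3.33, 4.09 and 2.89 in the 10.5 dpp cultures, and -1.24, -1.38 and -0.97 for T6-12A against T6-12K. The gap between cultured and uncultured libraries was then 0.62 for miR-221-3p and 1.44 for miR-222-3p, and T10 against T6 was -0.35 for miR-222-3p. With median-of-ratios factors the 6.5 dpp cultures gave 3.01, 3.20 and 2.20, T6-12A against T6-12K -1.33, -1.47 and -1.06, and the 10.5 dpp cultures 3.13 for miR-221-3p and 2.68 for miR-222-3p.

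In the values as deposited, miR-221-3p gave 0.86 in TAD, 2.26 in the 10.5 dpp cultures, -1.02 for T6-12A against T6-12K and a gap of 0.76. miR-222-3p gave -0.24 in TAD, the opposite sign, 1.69 and 1.81 in the cultures, -0.76 for T6-12A against T6-12K and a gap of 1.31. miR-221-5p gave -0.095 in TAD, also the opposite sign. At equal depth TAD gave -1.48 for miR-221-3p, -2.58 for miR-222-3p and -2.43 for miR-221-5p, all of opposite sign. The 6.5 dpp cultures gave 1.93 for miR-221-3p and 1.12 for miR-222-3p, the 10.5 dpp cultures 1.78, 2.53 and 1.33, and the gap for miR-221-3p was 0.94. T10-12A against T10-12K was 0.048 for miR-221-3p and 0.086 for miR-221-5p, both of opposite sign, and -0.073 for miR-222-3p, and T6-12A against T6-12K was -0.38 for miR-222-3p. Without miR-10b-5p in the total, miR-222-3p gave 0.13 in TAD, 1.70 and 2.27 in the cultures and a gap of 1.36, and miR-221-3p a gap of 0.54.

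Leaving out a library, the 6.5 dpp cultures ranged from 1.91 to 2.68 for miR-221-3p, 2.04 to 2.95 for miR-221-5p and 1.24 to 1.74 for miR-222-3p. The 10.5 dpp cultures ranged from 2.47 to 2.67, 3.24 to 3.41 and 1.96 to 2.29, and TAD from 1.23 to 1.89, 0.55 to 0.66 and 0.40 to 0.52. Without TAD the gaps were 1.25, 2.04 and 1.24.

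With a mean of at least 100 CPM, 11 of 50 miRNAs past 2-fold were left in T10 against T6, 54 of 190 in TAD, 61 of 206 and 45 of 172 in the 6.5 and 10.5 dpp cultures, and 29 of 107 and 1 of 36 for the media. Fewer miRNAs were compared, 120 or 121 instead of between 319 and 331, and the share past 2-fold was also lower in each comparison. The count of 206 was 125 with median-of-ratios factors and 126 with trimmed means. The 16 miRNAs higher in every culture became 37, 44, 10 and 5 with median-of-ratios factors, trimmed means, equal depth and a mean of at least 100 CPM, and the 69 lower ones became 33, 22, 3 and 28.

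The limits are 1 library per condition, whole tissue, and the 5 reads of miR-221-5p in TAD, whose 1628770 miRNA reads were the fewest.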

Other observations

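The other 13 miRNAs with all cultures above all uncultured libraries are named here after their values were seen. Both strands of miR-210, a miRNA known to be induced by low oxygen, were among them, with a log2 gap between both groups of 1.32 (miR-210-3p) and 0.70 (miR-210-5p). Both strands of miR-21a were also among them, with 0.84 for miR-21a-5p and 0.40 for miR-21a-3p. The paper, from these same libraries, had already named miR-210-3p and miR-21a-5p as higher in its cultures with either medium. miR-23a-3p (0.34), miR-24-3p (0.20), miR-24-2-5p (0.10) and miR-27a-5p (0.03) come from neighbouring hairpins, and miR-3074-5p (0.16) lies opposite the miR-24 hairpins. The rest were miR-132-3p (0.27), miR-146b-5p (0.24), miR-10b-5p (0.09) and miR-6240 (0.04).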
